A study of Rattus norvegicus with 18 samples.

Results

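The genes described here are the receptors through which cardiac cells sense catecholamines and angiotensin II, with the enzyme that makes angiotensin II. They are 8 genes of the 28909 in the deposited RNA table, chosen by name: the β-adrenergic receptors ADRB1 and ADRB3, the α1-adrenergic receptors ADRA1A, ADRA1B and ADRA1D, the angiotensin receptors AGTR1A and AGTR2, and ACE, angiotensin-converting enzyme. Names are spelled as in the table, in capitals. The cells were neonatal rat ventricular cardiomyocytes, a primary culture from wild-type Sprague-Dawley rats of 1 day. Of 6 RNA libraries, 3 came from cells given the solvent DMSO for 0.5 h and 3 from cells given blebbistatin for 0.5 h. Blebbistatin blocks the motor activity of myosin II, and the comparison asks which transcripts differ after that short block. The treatment labels give a dose of 25 µM, while the design text also gives 0.25. Pre-plating to remove cells that attach quickly was the only step against other cell types, and the labels do not tell whether replicates were independent cell isolations, so that each p-value reflects the spread among these 6 libraries and nothing wider. The 12 chromatin samples of the series are not analysed here.

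Noradrenaline and adrenaline act on cardiac myocytes through β receptors, which couple to Gs, adenylyl cyclase and protein kinase A and raise the rate and force of contraction. They also act through α1 receptors, which couple to Gq and phospholipase C and are known for driving hypertrophic growth of neonatal rat cardiomyocytes. ACE cleaves angiotensin I to angiotensin II, which signals mainly through the Gq-coupled AT1 receptor (AGTR1A), while the AT2 receptor (AGTR2) is known mainly from fetal tissue and often opposes AT1.

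Values are CPM, read counts divided so that every library has the same total. The smallest step between values stood for 1 read and put the depth of the libraries at 59.6 to 63.3 M reads. One control, DMSO replicate 1, lay far from the rest, at -77.4 on a first principal component that carried 42.0% of the variance, against -3.03 to 34.6 for the others. Its 29 measured ribosomal protein genes differed by a mean of -0.728 on the log2 scale from those of the other libraries, its 12 macrophage and leukocyte markers by -0.61 and its 3 red blood cell markers by 1.70. Member results are therefore also given without this library, and the part of these differences in any result was not tested. The cardiomyocyte label was checked on 14 markers: cardiac troponin T, TNNT2, lay between 977 and 1798 CPM, and the list summed to 28471 to 33131 CPM with DMSO and 28222 to 29315 CPM with blebbistatin. Markers of other cells were also measured. The 14 fibroblast markers summed to 41414 to 47851 and 41168 to 46360 CPM, and the 12 smooth muscle and pericyte markers to 7064 to 7846 and 7596 to 8155 CPM. For 11 endothelial markers the sums were 277.5 to 343 and 284 to 335 CPM, and for 12 macrophage and leukocyte markers 121 to 211 and 196 to 215 CPM. The 12 Schwann cell and neuron markers summed to 62.5 to 77.8 and 67.2 to 82.0 CPM. Only 7 of the 12 had enough reads to be tested, and 2, CHGA among them, were listed at 0 in all libraries. Which cells the receptor transcripts came from was not tested, and fewer cells of a type cannot be told apart from less RNA per cell.

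None of the 8 members passed the test for a difference between blebbistatin and DMSO. Of the 6 with enough reads to be tested, limma called 0, where 0.0197% of all 15204 genes tested were called at an adjusted p under 0.05. No member had an unadjusted p under 0.05 (1.51% of all genes did), and the groups overlapped for all 6 (they did not overlap for 6.11% of all genes). ADRB1, ADRA1B and ADRA1D had positive log2 fold changes and ADRA1A, AGTR1A and ACE negative ones. The median over the 6 was 0.038, against 0.00 over all genes tested. ADRB3 and AGTR2, with at most 8 and 28 reads in a library, did not pass the filter on low values and got no test. Without DMSO replicate 1, limma again called 0 of the 6 (0.0395% of all genes), and none had an unadjusted p under 0.05 (1.58%); the median log2 fold change was then 0.16. Other alternatives did bring single members under an unadjusted p of 0.05, ADRB1, ADRA1A and ADRA1D, as given with each gene, and none under an adjusted p of 0.05.

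**Figure D1:**
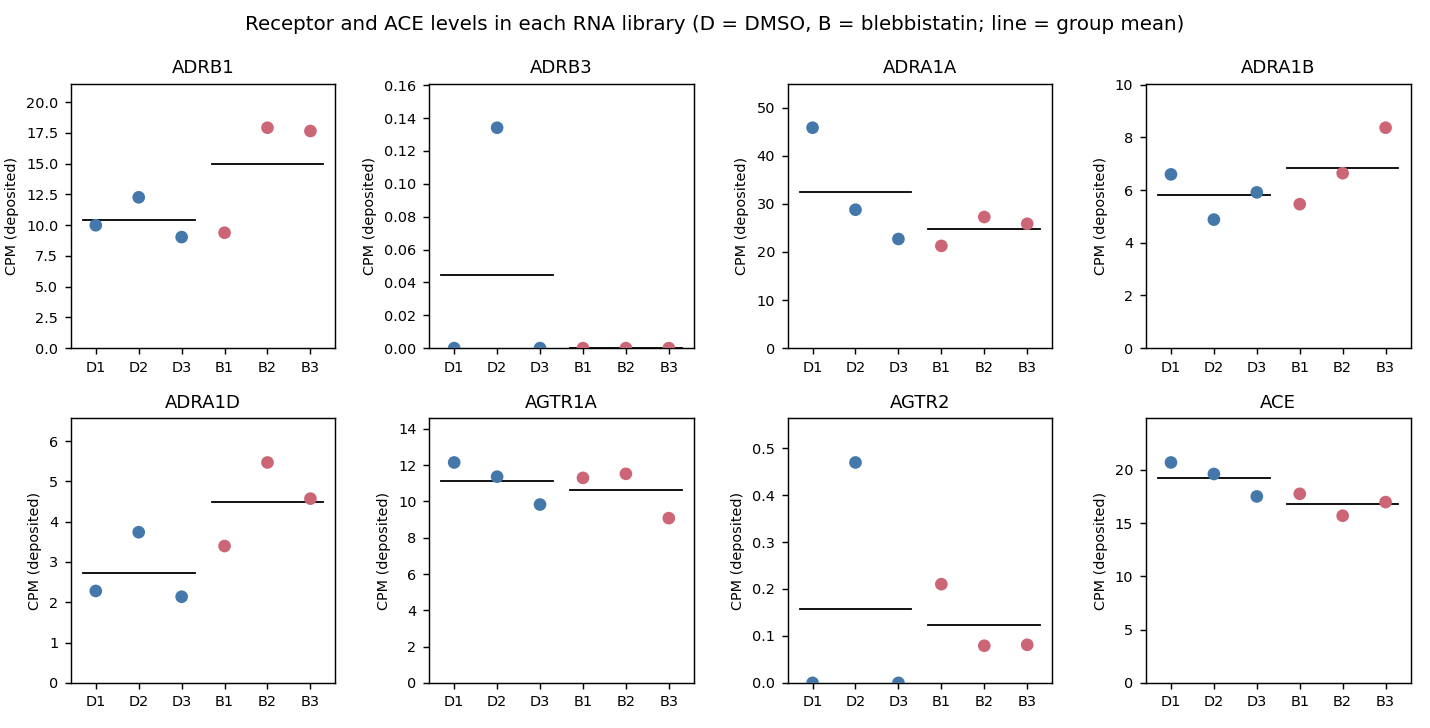
Deposited CPM (vertical axes, each from 0) of the 8 members in the 6 RNA libraries, with D1 to D3 for DMSO and B1 to B3 for blebbistatin and a line at each group's mean of deposited CPM, before the scaling used for the means in the text. ADRA1A was highest in D1 (45.8 CPM), ADRB1 was highest in B2 and B3 (17.9 and 17.6 CPM), and ADRB3 was listed above 0 in D2 alone.

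The promoter sequences of 3 members are shown because their transcripts take part in the pairs whose ratio differed in order between the groups (described further on), together with that of AGTR1A, the main angiotensin receptor. Each is the 250 bases before the RefSeq transcription start in the rat assembly GRCr8, which is newer than the rn6 build named by the submitters. They are written 5′ to 3′ on the gene's strand. Capitals mark letters of 5 short motifs searched on both strands: the TATA box TATAAA, the cAMP response element TGACGTCA, the GC box GGGCGG, the E-box CANNTG and the AP-1 site TGANTCA.
ADRB1, chr1:265776853-265777102, plus strand: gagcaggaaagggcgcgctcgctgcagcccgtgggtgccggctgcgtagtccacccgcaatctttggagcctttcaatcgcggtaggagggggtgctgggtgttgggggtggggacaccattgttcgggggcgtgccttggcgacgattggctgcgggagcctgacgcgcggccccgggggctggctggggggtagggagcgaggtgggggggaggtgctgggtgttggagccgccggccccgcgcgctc
ADRA1D, chr3:139262332-139262581, minus strand: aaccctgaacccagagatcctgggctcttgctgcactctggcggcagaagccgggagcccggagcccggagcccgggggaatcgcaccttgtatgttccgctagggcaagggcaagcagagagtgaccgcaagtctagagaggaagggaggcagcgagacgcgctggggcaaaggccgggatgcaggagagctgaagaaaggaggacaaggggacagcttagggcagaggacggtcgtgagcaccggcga
AGTR1A, chr17:34435433-34435682, minus strand: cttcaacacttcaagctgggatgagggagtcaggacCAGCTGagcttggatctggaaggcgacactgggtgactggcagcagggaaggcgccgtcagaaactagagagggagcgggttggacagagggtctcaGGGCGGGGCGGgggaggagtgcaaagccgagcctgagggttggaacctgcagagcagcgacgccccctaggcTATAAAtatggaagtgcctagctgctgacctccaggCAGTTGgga
ACE, chr10:91409879-91410128, plus strand: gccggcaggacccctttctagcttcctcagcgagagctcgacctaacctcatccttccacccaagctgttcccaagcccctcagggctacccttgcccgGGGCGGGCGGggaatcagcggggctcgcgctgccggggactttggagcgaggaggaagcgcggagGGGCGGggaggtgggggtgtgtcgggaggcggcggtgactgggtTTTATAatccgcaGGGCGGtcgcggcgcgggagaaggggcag

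Of the 8 members, 6 had a promoter in the RefSeq table, and ADRA1A and ADRB3 did not. The windows of ADRB1 and ADRA1D held none of the 5 motifs, and neither did that of ADRA1B. They were rich in G and C, at 72.0%, 64.0% and 70.8%, against a median of 51.2% over 33469 promoters. So were the windows of ACE and AGTR1A, at 69.2% and 60.8%, while that of AGTR2 was at 38%. AGTR1A and ACE each held 1 match to TATAAA, starting 45 and 42 bases before the start site. In ACE the match is on the other strand and reads TTTATA in the printed one. This motif was in 12.9% of all 250-base windows. GGGCGG occurred at 2 overlapping places in AGTR1A and at 4 places in ACE, 2 of them overlapping, and was in 30.5% of all windows. CANNTG occurred at 2 places each in AGTR1A and AGTR2 and was in 65.5% of all windows. TGACGTCA, the site of the cAMP-responsive factor CREB, and TGANTCA were in none of the 6 windows, and in 1.59% and 6.34% of all windows. These are matches of letters only.

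ADRB1 encodes the main β receptor of the cardiac myocyte. It was at 9.99, 12.3 and 9.02 CPM in DMSO replicates 1 to 3 and at 9.38, 17.9 and 17.6 CPM in blebbistatin replicates 1 to 3. The treated libraries were split: replicates 2 and 3 lay above every control, while replicate 1 lay within the control range. The mean after scaling was 10.6 ± 1.65 CPM in the controls and 14.8 ± 4.96 CPM in the treated libraries (SD, n = 3 each). The log2 fold change was 0.43 ± 0.29 (SE), a 1.35-fold difference with a 95% interval of 0.850 to 2.14, and limma's adjusted p was 0.991. An exact two-sided permutation test gave p = 0.3, where 3 libraries against 3 cannot go below 0.1. Behind these values stood 557 to 1133 reads per library. The log2 fold change of ADRB1 was 0.45 ± 0.31 without DMSO replicate 1, with an unadjusted limma p of 0.190. Without blebbistatin replicate 1, the log2 fold change of ADRB1 was 0.75 ± 0.21, with an unadjusted limma p of 0.00959 and an adjusted p of 1.00. That library was the treated one within the control range, and without blebbistatin replicate 2 or 3 the log2 fold change was 0.26 or 0.29, with an unadjusted limma p of 0.442 or 0.420. ADRB3, the β3 receptor best known from fat tissue, had 8 reads (0.134 CPM) in DMSO replicate 2, and the other 5 libraries listed it at 0. A floor of 3 reads was 0.0474 to 0.0503 CPM, so lower levels were not detectable at this depth.

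The 3 α1 receptor genes did not move in parallel between libraries. ADRA1A, which together with ADRA1B makes up most α1 receptor protein in rodent myocytes, was at 45.8, 28.8 and 22.7 CPM with DMSO and 21.3, 27.3 and 25.9 CPM with blebbistatin. The high value of DMSO replicate 1, the library that stood apart, set the mean difference. With it the scaled means were 33.4 ± 14.3 and 24.5 ± 3.47 CPM and the log2 fold change was -0.37 ± 0.29 (limma adjusted p = 0.991). Without it the log2 fold change was -0.047 ± 0.17. Without DMSO replicate 3, the lowest control, it was -0.62, with an unadjusted limma p of 0.0391 and an adjusted p of 0.595. ADRA1A rested on 1315 to 2773 reads per library, so counting error was small beside this spread.

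ADRA1B was at 6.60, 4.88 and 5.91 CPM with DMSO and 5.47, 6.64 and 8.37 CPM with blebbistatin. Its highest value was in blebbistatin replicate 3 and the other treated libraries lay within the control range or just above it. The log2 fold change was 0.18 ± 0.24 and the scaled means were 5.91 ± 1.15 and 6.74 ± 1.47 CPM. The log2 fold change of ADRA1B was 0.32 without DMSO replicate 1 and 0.34 without blebbistatin replicate 1. It was 0.047 without DMSO replicate 2 and 0.027 without blebbistatin replicate 3. ADRA1D, the third α1 subtype, best known from vascular smooth muscle, had the largest fold change of the 6 members tested. It was at 2.28, 3.74 and 2.14 CPM with DMSO and 3.40, 5.47 and 4.57 CPM with blebbistatin. Only DMSO replicate 2 and blebbistatin replicate 1 were out of order between the groups. The scaled means were 2.75 ± 0.84 and 4.43 ± 1.10 CPM, a log2 fold change of 0.68 ± 0.30. This is a 1.60-fold difference with a 95% interval of 0.991 to 2.59 (limma adjusted p = 0.991, unadjusted p = 0.0535; exact permutation p = 0.2). Without DMSO replicate 1, the log2 fold change of ADRA1D was 0.62 ± 0.32. Its unadjusted limma p was 0.0453 with library-size scaling, 0.0406 with upper-quartile scaling, 0.0478 with the replicate number as a block, 0.0221 without DMSO replicate 2 and 0.0322 without blebbistatin replicate 1. Without DMSO replicate 3 or blebbistatin replicate 2 it was 0.148 or 0.172, and the adjusted p was above 0.05 in all 15 alternatives. It rested on 132 to 346 reads per library, the fewest of the tested members.

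The level of each α1 gene by itself overlapped between the groups, while the shares of ADRA1A and ADRA1D in their sum differed in order. ADRA1A made up 83.8%, 77.0% and 73.8% of the summed CPM of the 3 α1 genes in DMSO replicates 1 to 3. In blebbistatin replicates 1 to 3 it made up 70.6%, 69.2% and 66.7%. All 3 treated libraries lay below all 3 controls, with means of 68.8 ± 2.00% and 78.2 ± 5.09% (SD, n = 3 each). The share of ADRA1D was 4.17%, 10.0% and 6.95% in the controls, against 11.3%, 13.9% and 11.8% in the treated libraries, so that all treated libraries lay above all controls (means 7.04 ± 2.91% and 12.3 ± 1.39%). ADRA1B overlapped, at 12.1% to 19.2% and 16.9% to 21.6%. The shares of ADRA1A and ADRA1D and the ratio of these genes given below rest on the same contrast and are not separate results. They were examined after the values had been seen. Among all pairs of tested genes, 6.77% had ratios that did not overlap between the groups. The nearest libraries were not far apart: the Wilson 95% binomial intervals of the ADRA1A share were 71.8% to 75.7% in DMSO replicate 3 and 68.5% to 72.6% in blebbistatin replicate 1. For ADRA1D they were 8.82% to 11.3% in DMSO replicate 2 and 9.92% to 12.8% in blebbistatin replicate 1. Intervals and floors cover counting error only. Transcript lengths were not used, so these are shares of reads and not of molecules, and only their change between libraries can be read.

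**Figure D2:**
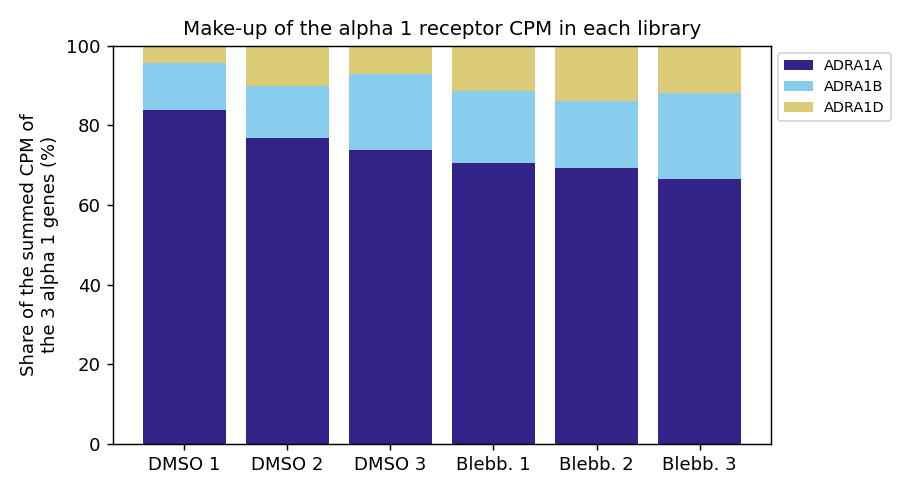
Share of ADRA1A, ADRA1B and ADRA1D in the summed CPM of the 3 genes (vertical axis, percent) in each library. The dark ADRA1A part spans 73.8% to 83.8% in the DMSO libraries and 66.7% to 70.6% in the blebbistatin libraries.

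The same order was looked for in all 15 pairs of the 6 tested members, since the change of a ratio between 2 genes of 1 library depends neither on scaling nor on transcript length. For 3 pairs the groups did not overlap, where 6.77% of all pairs of tested genes did not overlap. The pairs share members and so are not independent, and these ratios were examined after the values had been seen. ADRA1A to ADRA1D stood at 20.1, 7.70 and 10.6 in the controls, against 6.26, 4.99 and 5.66 in the treated libraries. ADRB1 to ADRA1A stood at 0.218, 0.426 and 0.398 in the controls, against 0.441, 0.657 and 0.682 in the treated libraries. ADRA1D to ACE stood at 0.110, 0.191 and 0.122 in the controls, against 0.191, 0.349 and 0.270 in the treated libraries. The nearest control and treated library were close in ADRB1 to ADRA1A (0.426 and 0.441) and in ADRA1D to ACE (0.1908 and 0.1914). They were farther apart in ADRA1A to ADRA1D (7.70 and 6.26). The exact two-sided permutation p was 0.1 for each, the smallest the design allows and not adjusted over the 15 pairs. Any pair with separate groups gets this p, so it adds nothing to the lack of overlap. On the log2 scale the 3 pairs differed by -1.05, 0.80 and 0.91 between the groups, and by -0.67, 0.50 and 0.76 without DMSO replicate 1.

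AGTR1A, the main angiotensin II receptor of the rat heart, varied least of the 5 tested receptors within each group, with coefficients of variation of 15.4% and 13.1%. Its libraries held 12.2, 11.4 and 9.83 CPM with DMSO and 11.3, 11.5 and 9.08 CPM with blebbistatin. The groups covered nearly the same range. Scaled means were 11.3 ± 1.74 and 10.5 ± 1.37 CPM, and the log2 fold change was -0.11 ± 0.19, a ratio of 0.929 with a 95% interval of 0.688 to 1.26. Without DMSO replicate 1 it was 0.0049. AGTR1B, the rodent paralog of AGTR1A, was listed at 0 in all 6 libraries. How reads that match both genes were counted is not given in the sources used here, so the AGTR1A value may include them. In GRCr8, ADRA1B and ACE each overlap an uncharacterised gene that is not in the table, so reads from there cannot be told apart. AGTR2 had 28 reads (0.469 CPM) in DMSO replicate 2, while both other controls listed it at 0. In blebbistatin replicates 1 to 3 it was at 0.210, 0.0790 and 0.0811 CPM (13, 5 and 5 reads). These levels were too low for a test, and the highest and the lowest libraries were both controls. MAS1, the receptor linked to angiotensin 1-7, was at 0.307 to 1.01 CPM over the 6 libraries.

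ACE was at 20.7, 19.6 and 17.5 CPM with DMSO and 17.7, 15.7 and 17.0 CPM with blebbistatin. Only blebbistatin replicate 1 reached into the control range, just above DMSO replicate 3. Scaled means were 19.6 ± 2.59 and 16.6 ± 0.751 CPM, and the log2 fold change was -0.24 ± 0.15, a ratio of 0.850 with a 95% interval of 0.667 to 1.08 (limma adjusted p = 0.991). Without DMSO replicate 1 it was -0.14 ± 0.14. Beside ACE, the angiotensin precursor AGT was at 0.149 to 0.956 CPM, and the mast cell chymase CMA1 and cathepsin G (CTSG), which can make angiotensin II without ACE, were listed at 0 throughout. Peptidases that break angiotensins down were better measured, among them ENPEP (13.8 to 25.5 CPM), MME (9.96 to 14.6 CPM) and PREP (81.3 to 105 CPM). Of 11 tested genes of this list 0 were called, 2 had positive and 9 negative fold changes, and the median log2 fold change was -0.055, which turned to 0.029 without DMSO replicate 1.

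**Figure D3:**
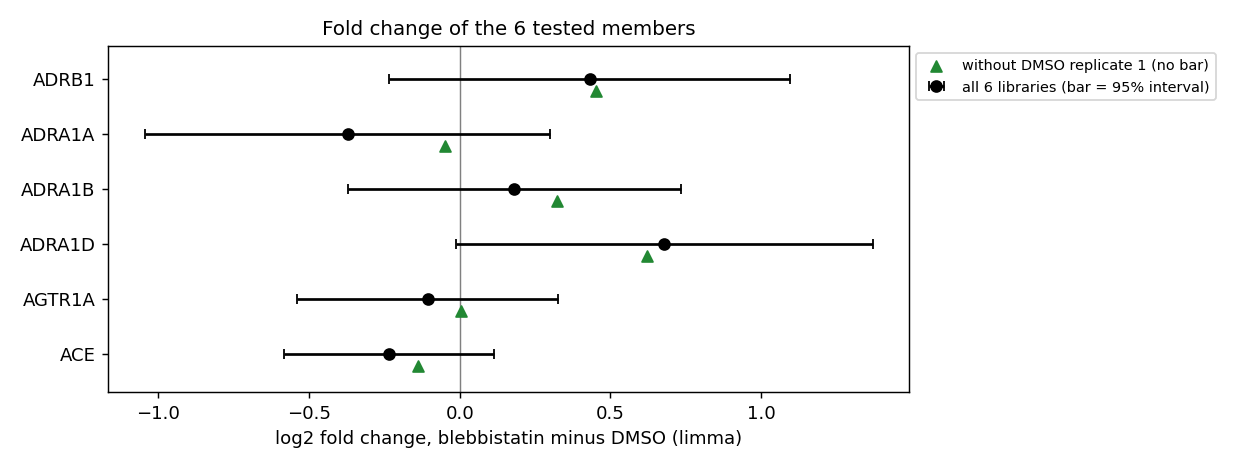
Log2 fold change, blebbistatin minus DMSO, of the 6 tested members (horizontal axis) with its 95% interval from limma, and the value without DMSO replicate 1 as a triangle. All 6 intervals include 0, ADRA1D comes nearest to excluding it (-0.013 to 1.37), and ADRA1A moves from -0.37 to -0.047 without that library.

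The 6 tested members followed different genes across the libraries. Among 10844 other tested genes that carry a RefSeq symbol and whose log2 level averaged 1 or more, the 3 with the highest Pearson correlation of log2 level over the 6 libraries were taken for each member. They are the extremes of a large search over few libraries, are given as a description, and say nothing of shared function. ADRA1A lay closest to RYR2, the cardiac ryanodine receptor and calcium release channel (r = 0.9996, and 0.9985 over 5 libraries without DMSO replicate 1), then ARHGEF12 and WWC3 (both 0.999). The CPM of ADRA1A was 3.75% to 3.83% of that of RYR2 in the 6 libraries, a coefficient of variation of 0.830%, while ADRA1A itself varied by 31.1%. Many genes shared the high value of DMSO replicate 1: 1919 candidates correlated with ADRA1A at over 0.9. For the other members that number was 29 (ADRA1B) to 148 (ACE).

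ADRB1 lay closest to NOC4L (r = 0.986), the clock-linked repressor gene BHLHE41 (0.985) and HTRA3 (0.982), which were all highest in blebbistatin replicates 2 and 3. BHLHE41 was at 5.11, 6.39 and 4.94 CPM with DMSO and 5.00, 8.16 and 7.43 CPM with blebbistatin. ADRA1B lay closest to GPRC5B, KRBA1 and DAPK3 (0.996, 0.980 and 0.980). ADRA1D lay closest to RARRES1, PRKAG2 (a regulatory subunit of AMP-activated kinase) and FASTKD3 (0.994, 0.992 and 0.985). AGTR1A lay closest to RNF144A, SSX2IP and PIP5K1A (0.997, 0.992 and 0.990) and ACE to HR, MTURN and ACVR1B (0.997, 0.993 and 0.991). Limma called 0 of these 18 genes.

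**Figure D4:**
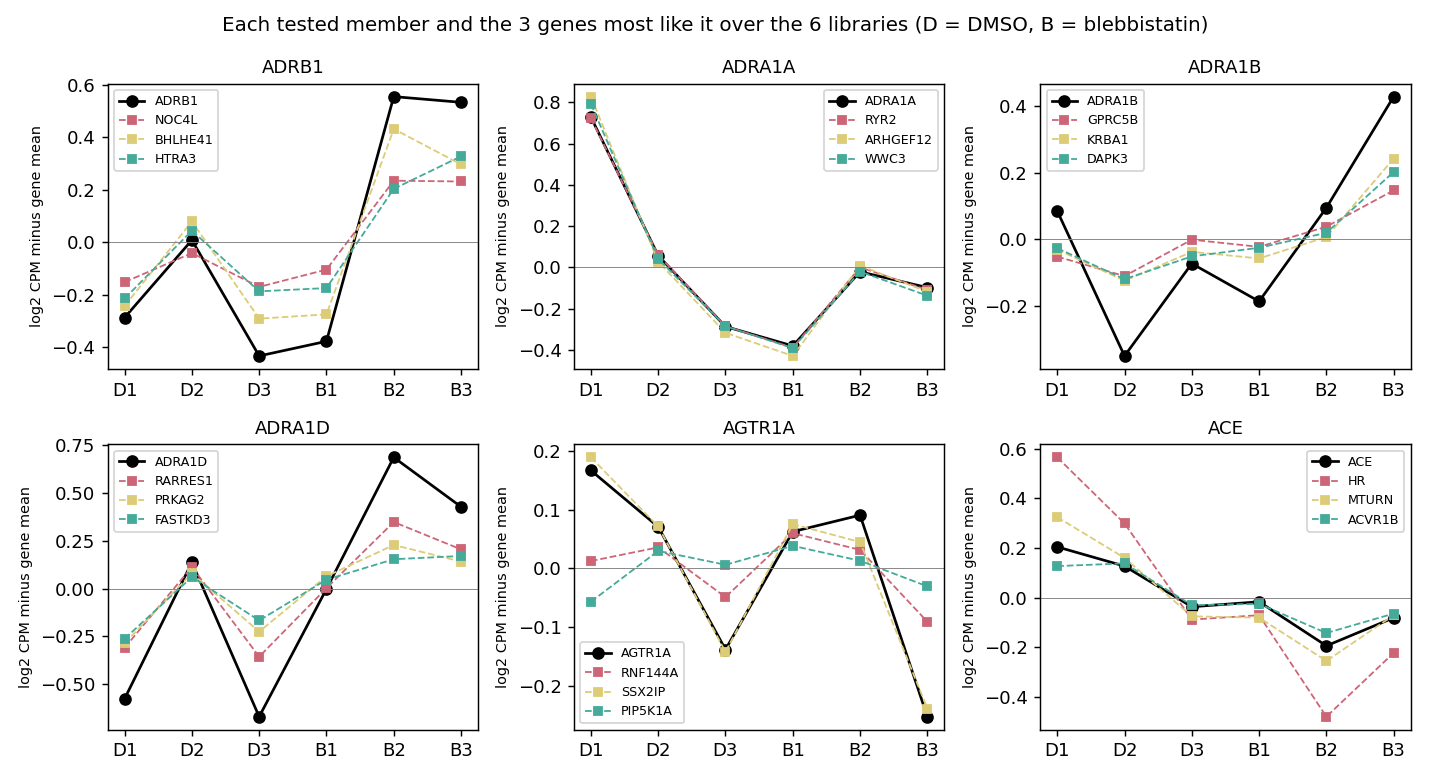
Log2 CPM minus the gene's own mean over the 6 libraries (vertical axes) for each tested member (black) and the 3 genes most correlated with it (dashed). The curves of ADRA1A and RYR2 lie on each other, with the highest point in D1, while ADRB1, ADRA1D and their neighbours are highest in B2 or B3.

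The genes around the receptors were read from 11 lists holding 201 tested genes, each counted once. Limma called 0 of them (0.0197% of all genes were called). At an unadjusted p under 0.05 there were 6, 1 higher and 5 lower, which is 2.99% against 1.51% of all genes. The 5 lower ones were FOS, FOSB, INHBA and PER1 of the cAMP or CREB list and EDN1 of the angiotensin or α1 list. All lists were written with earlier results from these libraries known, and some of these genes had been described as lower there. The 2.99% is therefore no independent evidence. The higher one, GNG7, passed the filter only through the group where it is high. The groups did not overlap for 18 (8.96% against 6.11% of all genes). The median log2 fold change of the 201 genes was -0.050.

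Of 6 other adrenergic and angiotensin-related receptors, 3 passed the filter on low values: ADRA2B and MAS1, both at low levels, and LNPEP, the angiotensin IV binding aminopeptidase. LNPEP was at 40.5, 23.9 and 17.8 CPM with DMSO and 17.4, 23.5 and 21.3 CPM with blebbistatin, again with its highest value in DMSO replicate 1. The α2 receptors ADRA2A, ADRA2B and ADRA2C did not exceed 0.162, 0.876 and 0.0648 CPM in any library. Genes of catecholamine synthesis were uneven: tyrosine hydroxylase (TH) reached at most 0.0671 CPM and the noradrenaline transporter SLC6A2 0.142 CPM, while the decarboxylase DDC was at 89.3 to 114.5 CPM and DBH at 2.51 to 4.40 CPM. MAOA, an enzyme that inactivates catecholamines, was at 52.7 to 58.0 CPM. Renalase (RNLS), also placed on this list, was at 2.58 to 4.34 CPM. Of the 7 tested genes of catecholamine handling 0 were called and the median log2 fold change was 0.0077.

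In the β receptor pathway, 24 genes of adenylyl cyclases, protein kinase A, its anchors and cAMP effectors were tested and 0 called. Of these, 18 had negative fold changes, where 50.4% of all genes tested had positive ones. The median was -0.073, and -0.068 without DMSO replicate 1. The groups did not overlap for 4 (against 6.11% of all genes), all lower with blebbistatin: ADCY4, ADCY6, PRKACB and AKAP5. PRKACB, a catalytic subunit of protein kinase A, was at 38.2, 34.1 and 33.8 CPM with DMSO and 33.1, 29.7 and 30.5 CPM with blebbistatin (log2 fold change -0.22 ± 0.14). AKAP5, an anchor that holds protein kinase A near the β receptor, was at 40.8, 26.3 and 26.1 CPM and at 25.5, 23.4 and 22.5 CPM (-0.39 ± 0.22). Without DMSO replicate 1 the log2 fold changes were -0.12 and -0.14. PRKAR1B, a regulatory subunit of protein kinase A, was at 0.331 to 0.972 CPM in the controls and 0.776 to 1.18 CPM in the treated libraries. The 11 tested cAMP phosphodiesterases, which end the signal, had a median of -0.14 that turned to 0.055 without DMSO replicate 1, where the list was 0.497 higher on the log2 scale than in the other libraries. The lowest p in this list were those of PDE7A (15.6 to 19.1 and 13.3 to 17.9 CPM), PDE8A (10.2 to 12.5 and 9.56 to 10.9 CPM) and PDE10A (13.0 to 15.3 and 15.0 to 17.9 CPM), and their groups overlapped.

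Of 20 G protein subunit genes 0 were called, and the median was -0.0039 (0.023 without DMSO replicate 1). GNAS, the Gs α subunit used by β receptors, was at 135.2 to 156 CPM with DMSO and 135.0 to 173 CPM with blebbistatin. GNAQ, the Gq α subunit used by α1 and AT1 receptors, was at 26.2 to 42.0 and 26.5 to 34.2 CPM. GNG7, a γ subunit, had 0.130 CPM in 1 control and none in the other controls, against 0.227 to 0.356 CPM in the treated libraries. It passed the filter on low values only through the treated group, so it had to differ, and its p is not read as a result. The β subunit GNB5 was at 4.89 to 7.09 and 6.89 to 7.99 CPM, and GNB4 at 21.4 to 27.9 and 22.2 to 23.8 CPM. Among 22 Gq effector genes 0 were called, with a median of -0.092 (0.055 without DMSO replicate 1, where this list was 0.422 higher). TRPC6, a cation channel opened downstream of phospholipase C, was at 44.7, 37.8 and 34.4 CPM with DMSO and 29.3, 33.1 and 30.5 CPM with blebbistatin. All its treated values lay below the controls (log2 fold change -0.36 ± 0.16, limma adjusted p = 0.991; -0.22 without DMSO replicate 1). TRPC6 was the only gene of the 22 whose groups did not overlap, where 6.11% of all genes tested did not overlap. PRKCE, protein kinase C ε, was at 6.66 to 9.20 and 5.47 to 7.04 CPM, with overlap.

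Kinases, arrestins and RGS proteins that switch receptors off formed a list of 33 tested genes, of which 0 were called (median -0.014). The groups did not overlap for 1 higher and 2 lower genes of the 33, where 6.11% of all genes did not overlap. The receptor kinase GRK2 was at 59.7, 62.5 and 59.1 CPM with DMSO and 55.1, 55.5 and 58.6 CPM with blebbistatin, without overlap (log2 fold change -0.14 ± 0.11). GRK3, its close relative, was at 0.827 to 1.17 and 0.379 to 0.876 CPM. ARRB2, β-arrestin 2, was at 2.89, 4.56 and 4.99 CPM with DMSO and 6.77, 5.53 and 5.47 CPM with blebbistatin, also without overlap (0.49 ± 0.23; 0.30 without DMSO replicate 1). RGS16 and RGS18 speed the shut-off of G protein α subunits. RGS16 was at 5.77, 12.0 and 12.0 CPM with DMSO and 7.32, 5.34 and 7.20 CPM with blebbistatin (log2 fold change -0.55 ± 0.29). DMSO replicate 1 was its lowest control, and without it the log2 fold change was -0.86 ± 0.19 (limma unadjusted p = 0.00184, adjusted p = 0.962). RGS18 was at 0.331 to 1.49 and 1.10 to 2.17 CPM. AGTRAP, which binds the tail of the AT1 receptor, was at 23.7 to 25.1 and 22.6 to 30.2 CPM.

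Among 20 tested genes of the cAMP or CREB list, 0 were called, 13 had negative fold changes and the median was -0.16 (-0.080 without DMSO replicate 1). This list holds genes known to respond to cAMP or CREB and also factors that carry the response, such as CREB1, ATF1 and CRTC1. With all libraries, 4 were lower and 0 higher at an unadjusted p under 0.05 (against 1.51% of all genes): FOS, FOSB, INHBA and PER1. Some of these genes also respond to many other stimuli and had been described as lower in earlier results from these libraries, so they are no independent evidence about receptor signalling. PER1, a clock gene with a cAMP response element, was at 22.6, 25.3 and 23.6 CPM with DMSO and 20.2, 19.9 and 18.3 CPM with blebbistatin (log2 fold change -0.33 ± 0.12, limma adjusted p = 0.991). INHBA, an activin subunit, was at 141, 94.2 and 93.8 CPM and at 69.2, 66.0 and 74.0 CPM (-0.67 ± 0.21; -0.43 without DMSO replicate 1). SIK1, a kinase gene induced by cAMP, was at 35.1, 35.1 and 35.1 CPM with DMSO and 33.9, 32.6 and 38.6 CPM with blebbistatin. FOSB was at 4.28, 5.52 and 5.30 CPM with DMSO and 2.36, 2.88 and 3.37 CPM with blebbistatin (-0.83 ± 0.22). FOS was at 26.9, 26.6 and 27.7 CPM and at 10.3, 11.6 and 11.1 CPM (-1.33 ± 0.14). Its limma adjusted p was 0.059, with 0.0372 without DMSO replicate 1, 0.124 to 0.482 without each of the other libraries and 0.999 with the replicate block.

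Of 19 genes known to respond to angiotensin II or α1 stimulation 0 were called, with a median of -0.087 (-0.044 without DMSO replicate 1). With all libraries, 1 had an unadjusted p under 0.05 and was lower, and 0 were higher (against 1.51% of all genes). EDN1, the endothelin 1 precursor, was at 34.5, 67.2 and 80.5 CPM with DMSO and 34.1, 28.3 and 34.5 CPM with blebbistatin (log2 fold change -0.87 ± 0.27, and -1.19 without DMSO replicate 1). Its groups were separate after scaling and overlapped slightly before it. After scaling, the groups were separate for 2 of the 19 genes, both lower, against 6.11% of all genes. HBEGF, an EGF receptor ligand, was at 77.6 to 119 and 83.8 to 88.2 CPM. Without DMSO replicate 1, 6 of the 19 were lower at an unadjusted p under 0.05 and 0 higher (against 1.58% of all genes), with limma adjusted p from 0.0524 upward. Among 34 other tested receptors for peptides, amines and lipids 0 were called (median -0.056, and 0.048 without DMSO replicate 1). The groups did not overlap for 2 (against 6.11% of all genes). AVPR1A, a vasopressin receptor, was at 0.942 to 1.41 CPM with DMSO and 1.61 to 2.45 CPM with blebbistatin. BDKRB2, the bradykinin B2 receptor, was at 43.4 to 54.3 and 35.8 to 50.5 CPM. ADORA2B, an adenosine receptor that couples to Gs, was at 1.92 to 2.98 and 3.21 to 4.28 CPM. For AVPR1A and ADORA2B all treated libraries lay above all controls, and neither passed the test (limma adjusted p = 0.991 for both).

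**Figure D5:**
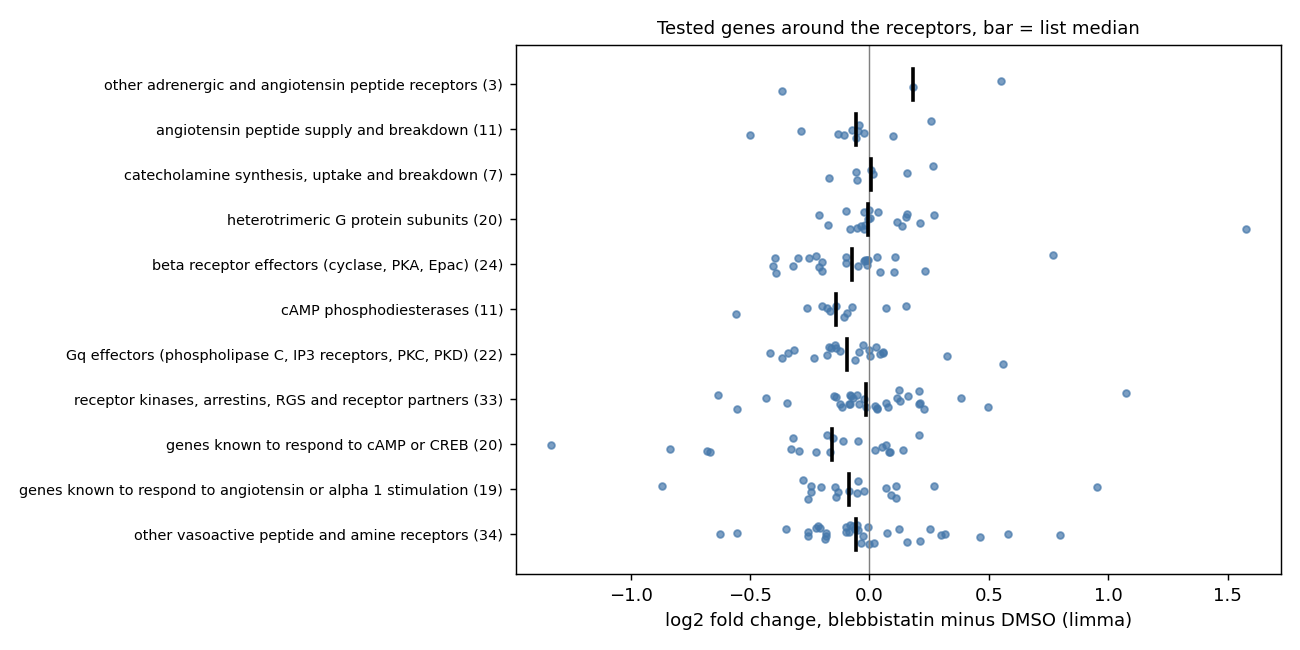
Log2 fold change, blebbistatin minus DMSO (horizontal axis), of each tested gene in the 11 lists around the receptors, with a black bar at the list median and the number tested in brackets. The medians lie between -0.16 and 0.18, and the points farthest to the left are FOS and EDN1 among the response genes.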

How the data were processed

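RNA values came from 1 deposited table of 28909 genes. It holds CPM made by the authors, since each column has the same total although the table's name speaks of counts. HISAT2 2.1.0, StringTie 1.3.4, edgeR 3.20.9 and build rn6 are listed, without roles, in the submitters' processing notes. Annotation and strand setting are not given in the sources used here. Between 98.7% and 98.9% of values under 2000 reads lay within 0.02 of a whole multiple of 1 read, and all member values did.

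A filter kept the 15204 genes that reached 0.162 CPM (about 10 reads) in 3 or more libraries. They were tested with limma 3.58.1 in R 4.3.3 (trend and robust settings) on log2(CPM / TMM factor + 0.1). The tests were two-sided, used no block and were adjusted by Benjamini-Hochberg over all genes, with a threshold of 0.05. TMM factors ran from 0.928 to 1.03. Fold changes are on this log2 scale, so a low gene's change comes out too small. Group means and SDs use CPM divided by the TMM factor, and single-library values are the deposited ones. The fit was tested on simulated data. Named genes are all members, the 3 with the lowest p of each list and the 3 most like each member; further genes were named for their role or for groups without overlap, after their values were seen. Some genes that this rule takes are not reported here. Members, lists and named-gene rule were chosen with earlier results of these data known. Ratios and shares were added after the data were seen.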

Additional observations from a re-analysis of the deposited data

How the results depend on the processing

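No member was called under any of the 15 alternatives of scaling, filter, pseudocount, robust setting, replicate block and left-out library. Of 90 values of the 6 members under them, 88 kept their direction; AGTR1A changed sign without DMSO replicate 1 (0.00485) and without blebbistatin replicate 3 (0.00396), with values from -0.216 to 0.00485 when single libraries were omitted. Among the other named genes, PREP ran from -0.227 to 0.0294 and MAS1 from -0.19 to 0.552. Over all genes, 3 were called, and 3 to 6 without each library. The 1 higher gene became 0 without a filter, with pseudocounts of 0.5 or 1 CPM and with the replicate block, and 0 to 4 without each library; the cause was not tested. With the replicate block 0 members and 2 genes were called. For libraries with the same number, departures from the group mean had correlations of -0.289, 0.054 and -0.092, and DMSO replicate 3 correlated best with blebbistatin replicate 1 (0.376), so the numbers give no sign of pairing. An unadjusted p under 0.05 was reached by 229 genes, 421 without a filter, 926 without DMSO replicate 3 and 137 without blebbistatin replicate 3. Pairs with separate groups numbered 3, and 3 to 8 without each library, where fewer libraries have to be in order (8 without DMSO replicate 2, 7 without blebbistatin replicate 1). Pairs separate with all libraries stay so when 1 is left out, and scaling cannot move a ratio, so neither bears on their stability. The planned edgeR and DESeq2 alternatives were not run, because whole reads could not be recovered for every gene. Reads limit ADRB3 and AGTR2 most.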
